A study of Homo sapiens with 12 samples.

Results

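POU5F1, NANOG, ZFP42, PRDM14, L1TD1, DPPA2, DPPA4, LIN28A, LIN28B and FGF4 are genes of the undifferentiated human pluripotent state, taken here by name from a deposited count table. All 10 were found, each under 1 identifier that carries its symbol, among 65969 gene identifiers, and all 10 passed the filter on low counts. They were followed in embryoid bodies, the aggregates in which pluripotent stem cells differentiate, after 10 days in suspension. The cells were H1 and MEL1, a pair of established human embryonic stem cell lines. Each carried a lentiviral short hairpin RNA, switched on by doxycycline, against METTL14 (KD1, KD2 or KD3) or a control hairpin (SCR). METTL14 is the partner of METTL3 in the complex that writes N6-methyladenosine on RNA. H1 gave 2 libraries each of SCR, KD1, KD2 and KD3, and MEL1 gave 1 SCR, 2 KD1 and 1 KD2 library. Per the series' design text, transduced cells were selected with puromycin, seeded at 500 cells per microwell and kept in doxycycline at 2 µg/ml, SCR included. The labels do not say whether libraries of a group came from separate cultures, so p-values measure only the spread between libraries, which may be technical. No undifferentiated library was used here, so what follows is what was left of each RNA at day 10, not its fall from the start.

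POU5F1 (also called OCT4) and NANOG are homeodomain transcription factors that, with SOX2, hold the pluripotent state by binding their own and each other's regulatory DNA. PRDM14 and ZFP42 (REX1) are zinc finger proteins of the same state, and DPPA2 and DPPA4 are SAP domain proteins that act as a pair on chromatin. L1TD1 is an RNA-binding protein derived from a LINE-1 open reading frame, and FGF4 is a secreted growth factor that signals through FGF receptors to ERK. LIN28A and LIN28B are RNA-binding proteins that block maturation of let-7 microRNAs, and let-7 in turn represses both. When embryoid bodies differentiate, the core factors are silenced early, while LIN28 proteins persist in early neural progenitors.

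One promoter among the members holds the letters that POU5F1 and SOX2 are known to bind together, and it is printed because NANOG carries the clearest hairpin difference below. The NANOG gene (ENSG00000111704) lies at chr12:7787794-7799141 on the plus strand in GENCODE 29 on GRCh38. RefSeq promoters on GRCh38.p14, from 250 bases before to 50 after a start, were at hand for NANOG, ZFP42, L1TD1, DPPA2, DPPA4 and LIN28B. The octamer letters TTTGCAT and the SOX letters ACAATG, on either strand, stood side by side in NANOG only, 120 bases before the start. The octamer letters occurred in 4.46% of 35116 promoters, the SOX letters in 10.8% and both joined by 1 base (TTTGCATNACAATG, which holds both shorter motifs) in 3 promoters, 0.00854%. LIN28B held the SOX letters once and the other members' windows held neither. The capitals below mark the joined letters in the window chr12:7789229-7789348, plus strand, GRCh38.p14. Binding was not measured here.
NANOG promoter: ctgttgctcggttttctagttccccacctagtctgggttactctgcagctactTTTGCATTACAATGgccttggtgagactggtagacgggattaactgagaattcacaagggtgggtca

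The second set of sequences concerns the LIN28 pair. All 9 mature let-7 family sequences in the RefSeq table (let-7a to let-7g, let-7i and miR-98) shared the seed GAGGUAG, the bases 2 to 8 that pair with a target, so they form 1 seed group. The complement of that seed, CTACCTC, was searched on the sense strand of 1 coding transcript per gene in GENCODE 29. It occurred in 22.1% of 19666 genes, and at 3 or more places in 0.798%. LIN28B held it 5 times, 4 of them after the stop codon, while LIN28A and FGF4 each held it once after the stop codon and L1TD1 once before it. The other members held none. Capitals mark the seed in let-7a and the matching letters in each target. The positions are counted from the first base of the transcript. Mature microRNAs were not measured.
hsa-let-7a-5p: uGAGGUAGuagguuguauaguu
LIN28B at 1000: cccggttgcaaagtCTACCTCa
LIN28B at 3427: actgatgatagtaaCTACCTCt
LIN28B at 3609: tttacagcaaaaggCTACCTCa
LIN28B at 5048: aatgatggtgttgaCTACCTCt
LIN28A at 1649: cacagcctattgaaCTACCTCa
FGF4 at 1992: agtgcgtttaacatCTACCTCa

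Levels between genes were compared per length, as counts per kilobase of transcript scaled to the same total in every library. In H1 the order was LIN28A at 466 ± 50.6 (SD, n = 8), DPPA4 at 129.5 ± 27.0, LIN28B at 80.6 ± 16.4, POU5F1 at 52.1 ± 21.7, ZFP42 at 31.0 ± 6.25 and L1TD1 at 23.7 ± 10.6. DPPA2 at 3.42 ± 1.25, NANOG at 2.82 ± 1.61 and PRDM14 at 2.36 ± 0.808 followed, and FGF4 was last at 0.1 ± 0.0938. LIN28A and DPPA4 stood apart from the members next to them in every H1 library. The ranges of POU5F1 and LIN28B overlapped, as did those of POU5F1, ZFP42 and L1TD1, and those of DPPA2, NANOG and PRDM14. Ranked against 15944 genes that averaged 1 or more on this scale in H1, LIN28A stood at the 98.4th percentile and NANOG at the 17.7th. In MEL1 the order began with POU5F1 at 729 ± 315 (SD, n = 4) and LIN28A at 690.0 ± 30.5, whose ranges overlapped, and DPPA4 followed at 265 ± 68.0. ZFP42 at 67.6 ± 23.6, L1TD1 at 67.1 ± 16.8 and LIN28B at 64.2 ± 14.4 had overlapping ranges in MEL1. PRDM14 at 33.6 ± 15.0, which reached into those ranges, and NANOG at 29.4 ± 10.3 came next, and DPPA2 at 4.45 ± 0.863 and FGF4 at 3.12 ± 1.08 were the lowest. POU5F1 was counted here under its named identifier alone. That identifier held 21.8% to 41.8% of the counts summed with candidate copies, described below, in H1 libraries and 48.9% to 58.1% in MEL1. Its places and overlaps in both orders therefore hold for that identifier only.

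The plot of all members by library shows the pattern on which the results turn. Within a line the members did not move as 1 block, and between the lines most of them differed by more than any hairpin changed them.

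**Figure D1:**
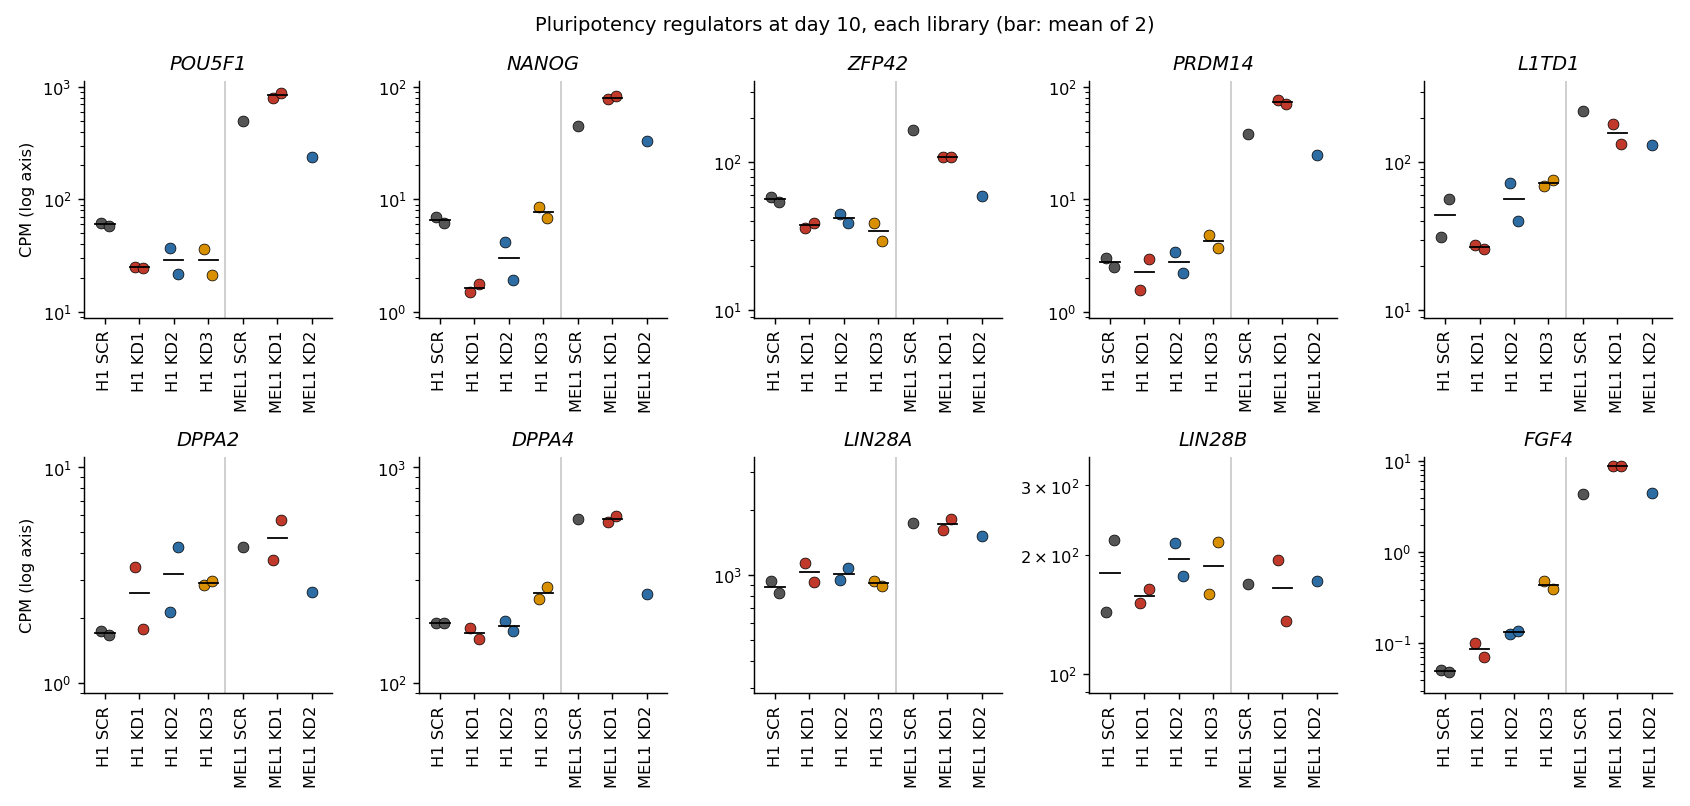
Level of each member in every library, in CPM (counts scaled to library size after TMM normalization) on a log axis that differs between panels, by cell line and hairpin; dots are libraries and a bar is the mean of 2 libraries. POU5F1, NANOG, PRDM14 and FGF4 are higher in all 4 MEL1 libraries than in all 8 H1 libraries, while LIN28B overlaps between the lines.

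The target was checked first. With SCR in H1, METTL14 stood at 29.8 and 43.8 CPM, and the 6 H1 knockdown libraries held 8.89 to 17.7 CPM. In MEL1 it was at 49.9 CPM with SCR and at 5.94 to 8.95 CPM in the 3 knockdown libraries. In H1 the log2 fold change was -1.74 ± 0.24 (SE) with KD1, -1.18 ± 0.24 with KD2 and -1.71 ± 0.24 with KD3, with edgeR adjusted p of 0.00434, 0.0405 and 0.00671. A difference between the H1 hairpins in METTL14 was not called (edgeR adjusted p = 0.285), and KD3 minus KD1 was 0.02 ± 0.24.

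The MEL1 SCR library summed to 15963241 estimated counts and the other 11 to between 36609628 and 43508287, so values against MEL1 SCR rest on 1 shallow library. Libraries also differed in how levels followed transcript GC content. The rank correlation of a gene's deviation with its GC content, over 12110 genes, ran from -0.631 in MEL1 SCR to 0.615 in an H1 KD1 library. The H1 SCR libraries stood at 0.243 and -0.491. All members were therefore also tested with that trend removed, and values that change are given beside the result. The labelled tissue was checked by markers. The 17 neuroectoderm genes summed to 1723 to 2421 CPM in H1 and only 622 to 887 CPM in MEL1. The 10 members summed to 1351 to 1557 CPM in H1 and 2444 to 3833 CPM in MEL1.

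In H1, knockdown went with less ZFP42 and, for some hairpins, less NANOG, while FGF4 was higher with 1 hairpin. For the average of the 3 hairpins against SCR, 3 of 10 members were called (edgeR adjusted p under 0.05), all lower: ZFP42, NANOG and POU5F1. The background was 7.16% of 24898 genes called in either direction and 4.93% called lower. The median log2 fold change was 0.10 over the members and 0.01 over all genes. The 3 calls depended on both SCR libraries, since without either of them none was left. The POU5F1 call also depended on how reads were divided between copies of the gene, described next. The hairpin comparisons share the H1 SCR libraries.

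**Figure D2:**
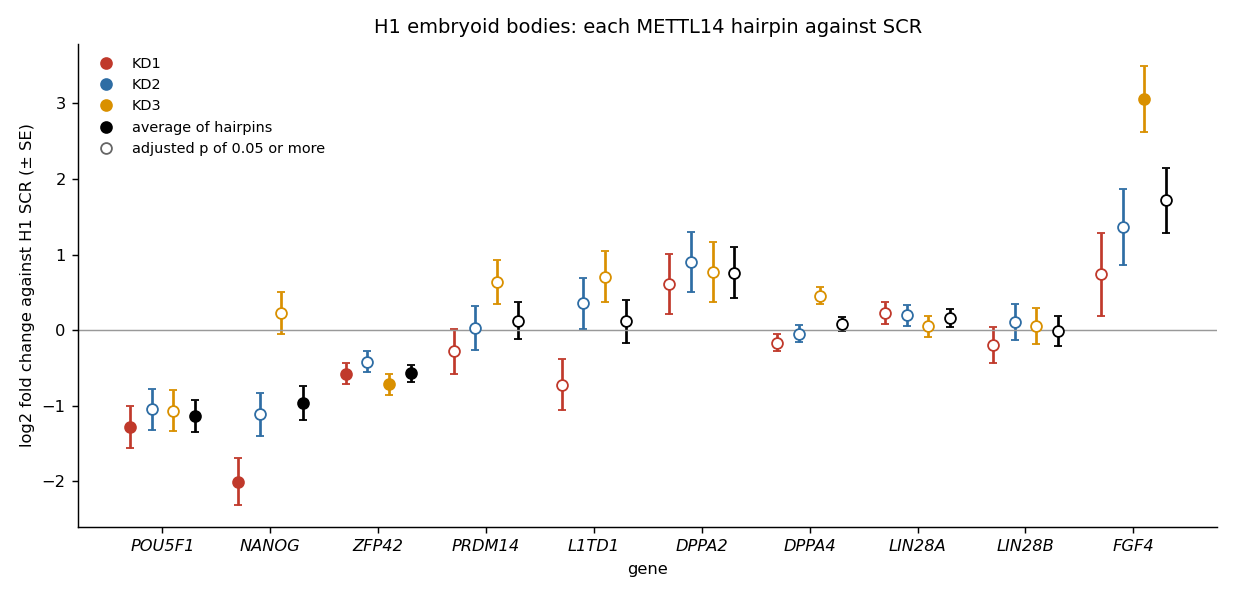
Log2 fold change of each member in H1 for KD1, KD2, KD3 and their average against SCR; bars are standard errors and filled dots have an edgeR adjusted p under 0.05. ZFP42 lies below 0 for every hairpin, NANOG lies at -2.0 with KD1 and 0.23 with KD3, and FGF4 lies highest with KD3.

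POU5F1, the POU factor at the centre of the network, was counted under ENSG00000204531 (chr6:31164337-31180731, minus strand, in GENCODE 29 on GRCh38), in the major histocompatibility region, of which reference builds hold several haplotypes. Its level under that identifier was 62.2 and 58.6 CPM with SCR, 25.3 and 24.5 with KD1, 36.7 and 21.8 with KD2, and 36.5 and 21.3 with KD3. All 6 knockdown libraries were below both SCR libraries. The log2 fold change of the average was -1.13 ± 0.21 (SE, edgeR adjusted p = 0.0191), that of KD1 was -1.28 ± 0.27 (adjusted p = 0.022), and KD2 and KD3 were not called (adjusted p = 0.106 and 0.0778).

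A further 6 identifiers, which no name table used here names, were treated as candidate copies of POU5F1 on other haplotypes. One of them had the highest correlation with POU5F1 over the 12 libraries (r = 0.987) among the 1328 unnamed identifiers compared. The 6 formed 3 pairs, and the members of a pair had the same count in every library to the first decimal. Each copy of the pair with that correlation held 91.9 to 376.4 counts in H1 libraries and 2620.2 to 14463.7 in MEL1. Each copy of another pair held 727.1 to 1783.3 counts in H1 and 0.0 to 5.1 in MEL1. The quoted r therefore does not apply to this pair, which held most of the copies' counts in H1. Copies of the last pair held 0.0 to 3.6 counts. GENCODE 29 lists 35 POU5F1 transcripts, of which 9 lie on the primary assembly. The named identifier held 39.2% and 41.8% of the summed counts in H1 SCR, 33.9% and 38.9% in KD1, 30.2% and 35.8% in KD2 and 21.8% and 25.8% in KD3. So every knockdown library gave the named identifier a smaller share than either SCR library, by a small margin in 1 KD1 library.

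With the copies added, POU5F1 was at 149 and 149.5 CPM with SCR, 74.5 and 62.9 with KD1, 122 and 61.0 with KD2, and 142 and 98.0 with KD3. Both KD1 libraries and 1 KD2 library were under the KD3 libraries. The higher KD3 library lay close to SCR.
The log2 fold change was then -1.12 ± 0.29 with KD1 (adjusted p = 0.0436), -0.71 ± 0.29 with KD2 (0.277), -0.32 ± 0.29 with KD3 (0.612) and -0.71 ± 0.23 for the average (0.0987). The KD1 call was narrow: it was lost with the GC and length trend also removed (-1.13, adjusted p = 0.0696) and without either H1 SCR, either H1 KD1 or either MEL1 KD1 library. Leaving out 1 library gave KD1 values of -1.21 to -1.0 with adjusted p of 0.00629 to 0.205. Without H1 KD2 replicate 1 the average was called (-0.91, adjusted p = 0.00876). Adding the copies was chosen after the data were seen.

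**Figure D3:**
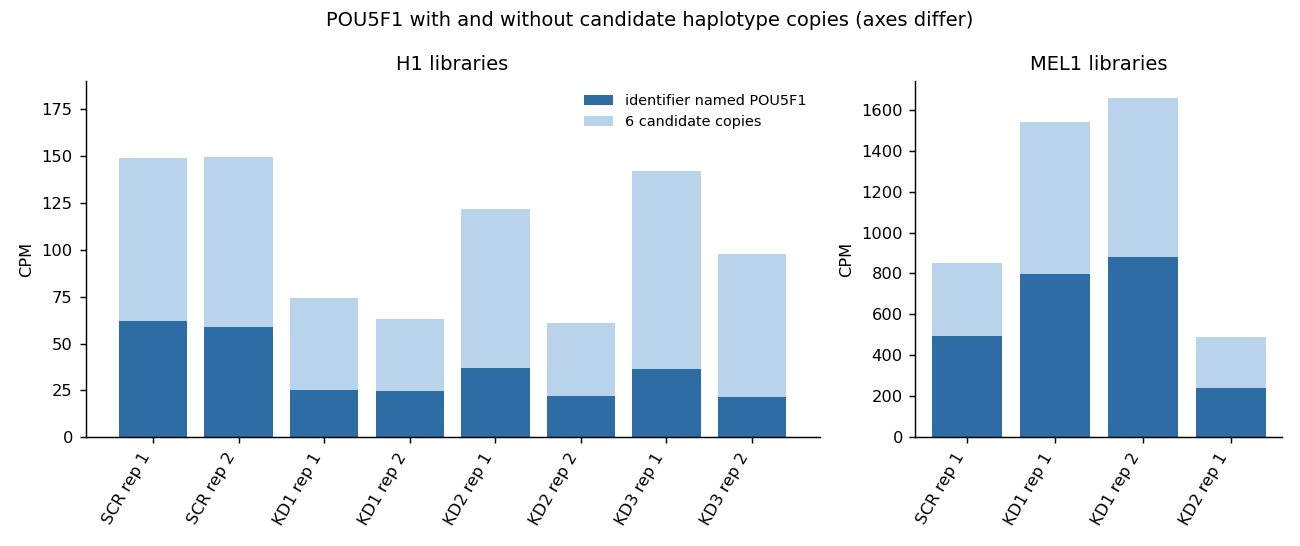
POU5F1 in each library in CPM, as the identifier that carries the name (dark) and 6 candidate haplotype copies stacked on it (light), with separate linear axes for H1 and MEL1. In H1 the dark part is lower in all 6 knockdown libraries, while the full bar of 1 KD3 library reaches 142 CPM beside 149 and 149.5 CPM in SCR.

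NANOG, the homeodomain factor whose promoter is printed above, depended on the hairpin. Its level was 7.04 and 6.12 CPM with SCR, 1.52 and 1.76 with KD1, 4.15 and 1.91 with KD2, and 8.60 and 6.79 with KD3. Both KD1 and both KD2 libraries were below SCR, and the KD3 libraries overlapped SCR. The log2 fold change was -2.0 ± 0.31 (SE) with KD1 (edgeR adjusted p = 0.00622), -1.11 ± 0.29 with KD2 (0.0927) and 0.23 ± 0.27 with KD3 (0.716). NANOG was called between the H1 hairpins (adjusted p = 0.01), with KD3 above KD1 by a log2 of 2.23 ± 0.31 (adjusted p = 0.00594). The average of the hairpins, -0.96 ± 0.22 (adjusted p = 0.0325), therefore joins hairpins that differed. Raw counts were 60 and 75 with KD1 and 253 and 275 with SCR. The pseudogene NANOGP8, which can share reads with NANOG, held 0.0 to 27.1 counts in H1, and NANOGP1 held 0.0 to 26.8.

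ZFP42, a zinc finger protein whose RNA is a standard mark of undifferentiated cells, was lower with every hairpin. ZFP42 (ENSG00000179059, chr4:187995771-188005050, plus strand) was at 58.4 and 53.9 CPM with SCR, 36.2 and 39.1 with KD1, 45.1 and 39.0 with KD2, and 38.9 and 29.6 with KD3. No knockdown library reached the lower SCR library. The log2 fold change was -0.58 ± 0.14 (SE) with KD1 (edgeR adjusted p = 0.0258), -0.42 ± 0.14 with KD2 (0.171), -0.71 ± 0.14 with KD3 (0.0257) and -0.57 ± 0.11 for the average (0.0163). The KD1 value was -0.40 with the GC and length trend removed (adjusted p = 0.117) and -0.51 with upper-quartile scaling (0.0506). The average stayed called in all 8 other settings that kept every H1 library. A difference between the hairpins was not called for ZFP42 (adjusted p = 0.421), with KD3 minus KD1 at -0.14 ± 0.14.

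PRDM14, the zinc finger protein that holds human cells in the pluripotent state and also acts in germ cells, was low in H1. PRDM14 was at 3.02 and 2.49 CPM with SCR, 1.57 and 2.95 with KD1, 3.38 and 2.21 with KD2, and 4.86 and 3.74 with KD3. Only the KD3 libraries lay outside the SCR range on the high side together. The log2 fold change was 0.13 ± 0.24 (SE) for the average, and 0.64 ± 0.29 with KD3 (edgeR adjusted p = 0.263).

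DPPA4, the chromatin partner of DPPA2, was high with KD3. DPPA4 was at 190.3 and 189 CPM with SCR, 179 and 160.3 with KD1, 194 and 174 with KD2, and 244 and 277 with KD3. The KD3 libraries were above every other H1 library. DPPA4 was called between the H1 hairpins (edgeR adjusted p = 0.0261), with KD3 above KD1 by a log2 of 0.62 ± 0.12 (SE, adjusted p = 0.0168). Over 8 other settings that difference ran from 0.39 to 0.62 and stayed called in all 8. KD1 against SCR was -0.16 ± 0.12, and 0.023 with the GC and length trend removed. KD3 against SCR was 0.46 ± 0.12 (adjusted p = 0.0601). Its neighbour DPPA2 was low, with 68 to 185 counts in H1. DPPA2 was at 1.74 and 1.67 CPM with SCR and 1.78 to 4.27 CPM in the 6 knockdown libraries. All 6 were above both SCR libraries, by a log2 of 0.76 ± 0.34 on average, which was not called (adjusted p = 0.203).

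L1TD1, the LINE-1 derived RNA-binding protein, varied between the SCR libraries themselves. L1TD1 was at 31.3 and 57.0 CPM with SCR, 27.6 and 26.1 with KD1, 72.8 and 40.4 with KD2, and 68.8 and 75.6 with KD3. KD1 lay below both SCR libraries and KD3 above both. The KD1 value was -0.72 ± 0.34 (SE, edgeR adjusted p = 0.228), that of KD3 was 0.71 ± 0.34 (0.311), and KD3 minus KD1 was 1.43 ± 0.34 (0.0602).

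FGF4, the secreted ligand of the list, was almost silent in H1. FGF4 had 2 counts in each SCR library, 4 and 3 with KD1, 6 and 6 with KD2, and 18 and 16 with KD3, in libraries whose depth is given above. Both KD3 libraries stood above every other H1 library. The SCR counts are under the limit of 3 that a count of 0 allows, so the size of the change is given as a ratio of summed counts. That ratio was 8.81 with KD3 (34 against 4 counts, 95% exact interval 3.14 to 34.2), 2.68 with KD2 (0.811 to 11.4) and 1.71 with KD1 (0.435 to 7.97), and the intervals cover counting error only. FGF4 was called with KD3 against SCR (edgeR adjusted p = 0.00613), between the hairpins (0.0154) and for KD3 against KD1 (0.0112). It passed the filter on low counts only through the H1 KD3 and MEL1 libraries, where it was high. With the H1 libraries fitted by themselves it was not called against SCR (0.0698) or against KD1 (0.117). Even with KD3 its level was 0.484 and 0.397 CPM, under the lowest MEL1 library at 4.36 CPM.

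LIN28A and LIN28B, the let-7 blockers, were called in no comparison of the H1 hairpins. LIN28A was at 934 and 827 CPM with SCR and 892 to 1132 CPM in the 6 knockdown libraries, which overlapped SCR. Its average log2 fold change was 0.16 ± 0.12 (SE, edgeR adjusted p = 0.45). LIN28B, with its 4 let-7 letters after the stop codon, was at 143 and 218 CPM with SCR and 151 to 216 CPM with the hairpins. Its average was -0.01 ± 0.20 (adjusted p = 0.994), an interval of -0.40 to 0.38 at 2 SE, and its sign changed between settings. The antisense gene LIN28B-AS1 held 79.0 to 151 counts in H1.

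Called between the H1 hairpins were 3 of 10 members (NANOG, FGF4 and DPPA4) against a background of 3.54%, and these were also the 3 members called between KD3 and KD1, all higher with KD3, against 4.63% of all genes. Against SCR, the counts were 3 of 10 with KD1 (background 11.1%), 0 of 10 with KD2 (1.54%) and 2 of 10 with KD3 (2.98%). FGF4 is among those called between the hairpins, for KD3 against KD1 and for KD3 against SCR. It passed the filter on low counts only through the H1 KD3 and MEL1 libraries, where it was high. Its calls therefore lend these counts no support. For KD2, edgeR gave 4 members an unadjusted p under 0.05, and DESeq2 called NANOG and POU5F1. Leaving out either KD1 library left no member called in KD1 or between the hairpins, where 1 group was then a lone library assumed to vary like the others. Without KD3 replicate 2, NANOG alone was called between the hairpins. METTL14 itself differed between KD3 and KD1 by a log2 of 0.02 ± 0.24, an interval of -0.46 to 0.51 at 2 SE.

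Over both lines together, where MEL1 adds 1 SCR library, no member was called, against a background of 0.213%. ZFP42 came nearest at a log2 of -0.66 ± 0.16 (SE, edgeR adjusted p = 0.0986), and its 9 knockdown libraries were all below the SCR libraries of their line. NANOG was at -0.32 ± 0.52 and POU5F1 at -0.71 ± 0.36, or -0.33 ± 0.37 with the candidate copies added (adjusted p = 0.711). At an unadjusted p under 0.05 edgeR gave 2 members, and DESeq2 called ZFP42. With each knockdown group taken against SCR of its line at equal weight, ZFP42, POU5F1 (the named identifier alone) and FGF4 were called. In that fit of 7 groups, differences between hairpins and lines did not count as spread.

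MEL1 embryoid bodies held far more of most members than H1 ones. With KD1 and KD2 in both lines, 8 of 10 members were higher in MEL1, against a background of 22.0% of genes called higher and 21.9% called lower, and DPPA2 and LIN28B were not called. Among the 8, FGF4 passed the filter on low counts only through the MEL1 and H1 KD3 libraries, so its call lends that count no support. FGF4 was higher by a log2 of 5.84 ± 0.25 (SE, edgeR adjusted p = 2.82e-08), NANOG by 4.51 ± 0.23 (2.13e-07), PRDM14 by 4.07 ± 0.22 (2.43e-07) and POU5F1 by 4.05 ± 0.22 (1.18e-06), or 3.48 ± 0.23 with the candidate copies added. L1TD1 was higher by 1.89 ± 0.26, DPPA4 by 1.13 ± 0.09, ZFP42 by 1.02 ± 0.11 and LIN28A by 0.66 ± 0.11. DPPA2 was at 0.29 ± 0.30 and LIN28B at -0.05 ± 0.19. All 8 calls held in every alternative tried and without each library in turn. The hairpins were matched in this contrast but the level of METTL14 was not. METTL14 was at a log2 of -0.757 ± 0.197 in MEL1 against H1, and its part in the members' levels was not tested. In bulk RNA, fewer pluripotent cells and less of these RNAs per cell cannot be told apart.

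The same direction held for the wider network. Of 45 tested pluripotency genes that are not members, 31 were higher and 8 lower in MEL1, with a median log2 of 1.71 against -0.05 over all genes. Of 17 neuroectoderm markers 16 were lower in MEL1, with a median of -4.36. Over all genes 22.0% were higher and 21.9% lower in MEL1. PAX6, a factor of neural progenitors, was at 95.8 to 224 CPM in H1 and 0.204 to 2.92 CPM in MEL1. The summed level of the 17 markers was 622 to 887 CPM in MEL1, below every H1 library, and their part in the members' levels was not tested.

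In MEL1, KD1 and KD2 lay on different sides of the SCR library for several members. POU5F1 was at 496 CPM with SCR, 798 and 879 with KD1 and 239.9 with KD2. NANOG was at 44.9 CPM with SCR, 77.0 and 81.9 with KD1 and 32.8 with KD2. PRDM14 was at 37.8 CPM with SCR, 76.8 and 70.1 with KD1 and 24.6 with KD2. For these 3 genes SCR lay between the hairpins. The rank correlation with GC content was -0.631 in MEL1 SCR, -0.035 in KD2 and 0.402 and 0.457 in KD1. POU5F1 and PRDM14 had the highest transcript GC content among the members, 54.8% and 54.9%. The MEL1 levels were not corrected for that trend, and its part in them was not tested.

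DPPA4 was at 575 CPM with SCR and 559.5 and 592 with KD1, and at 259 with KD2. FGF4 was at 4.36 CPM with SCR, 8.93 and 8.81 with KD1 and 4.45 with KD2. ZFP42 was at 166 CPM with SCR, 109 and 109 with KD1 and 59.4 with KD2, so it was lower in all 3 knockdown libraries, as in H1. LIN28A, at 1517 to 1818 CPM, and LIN28B, at 136 to 194 CPM, stayed within a narrow range. With 1 SCR library these are values with no test against SCR.

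**Figure D4:**
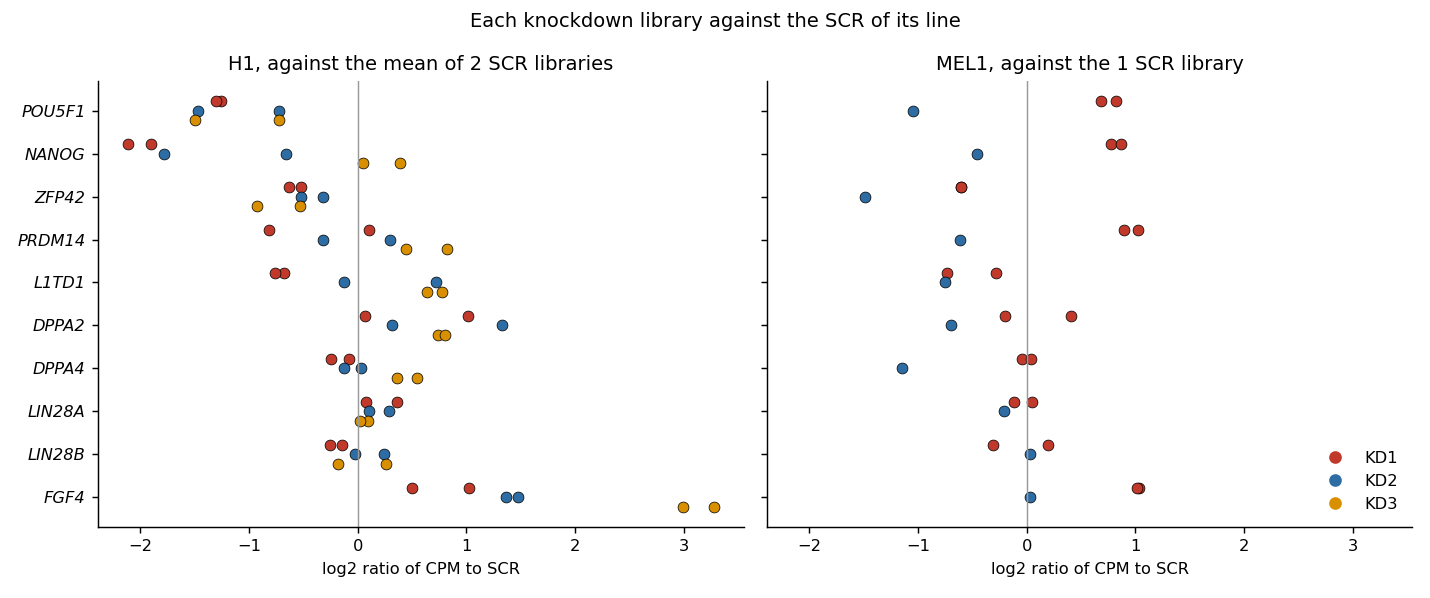
Log2 ratio of CPM in each knockdown library to SCR of the same line, by member and hairpin; dots are libraries, and in MEL1 the KD1 dots of ZFP42 and FGF4 nearly coincide. KD1 lies left of 0 for NANOG and POU5F1 in H1 and right of 0 in MEL1, while ZFP42 lies left of 0 in all 9 libraries. The trend with GC content was not removed from these ratios.

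KD1 against KD2 in MEL1 was fitted as a contrast added after the levels above were seen, with the lone KD2 library assumed to vary like the other groups. Its calls therefore give the size of the separation that prompted it and are no independent support for it. Higher with KD1 were 5 of 10 members, against 8.43% of genes called in either direction and 3.61% called higher. They were POU5F1 (log2 1.80 ± 0.35, edgeR adjusted p = 0.0189), PRDM14 (1.58 ± 0.33, 0.0194), NANOG (1.28 ± 0.33, 0.0432), DPPA4 (1.15 ± 0.15, 0.00159) and ZFP42 (0.88 ± 0.18, 0.0143). With the copies added POU5F1 was at 1.70 ± 0.38 (adjusted p = 0.0303), or 1.48 with the GC and length trend also removed (0.0737). The rank correlation with GC content was -0.035 in the KD2 library and 0.402 and 0.457 in the KD1 libraries, and its part in the other members was not tested beyond removal of the trend. Without KD1 replicate 2 only DPPA4 was called. In the other pluripotency genes 9 were higher and 1 lower with KD1 among 45 tested.

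The lines were then compared in what a hairpin did. No member was called for the difference between the lines in the joint KD1 and KD2 effect, against 0.598% of genes. This contrast rests on the single shallow MEL1 SCR library, assumed to vary like the other groups. NANOG came nearest, with a MEL1 effect above the H1 effect by a log2 of 1.74 ± 0.41 (edgeR adjusted p = 0.0799). At an unadjusted p under 0.05 edgeR gave 4 members, and DESeq2 called NANOG and DPPA4. METTL14 itself was at -1.197 ± 0.345 in this contrast, a larger fall in MEL1, and its part in the members' values was not tested. For KD1 minus KD2, a contrast also added after the levels were seen and resting on the lone MEL1 KD2 library, DPPA4 was called (log2 1.27 ± 0.19, adjusted p = 0.01), 1 of 10 members against 1.45% of genes. NANOG (2.17 ± 0.46, adjusted p = 0.0519), ZFP42 (1.04 ± 0.22, 0.0502), POU5F1 (2.04 ± 0.44, 0.0669) and PRDM14 (1.88 ± 0.44, 0.071) missed the threshold in the same direction. NANOG was thus lowest with KD1 in H1 and highest with KD1 in MEL1, and that reversal itself was not called.

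Other genes of the network gave the H1 values a frame. Of 45 tested, 2 were higher and 3 lower for the H1 average, where 7.16% of all genes were called, and their median was -0.03 against 0.01 over all genes. FOXD3, a forkhead factor of stem and neural crest cells, fell by 1.47 ± 0.25 (SE, log2, edgeR adjusted p = 0.0101), NR5A2, a nuclear receptor that can drive POU5F1, fell by 1.10 ± 0.25 (0.0266) and DNMT3B, the de novo DNA methyltransferase, fell by 0.38 ± 0.10 (0.0491). SOX2, the partner of POU5F1 that neural progenitors keep, rose by 0.46 ± 0.11 (0.0313), and OTX2, a factor of primed and anterior neural cells, rose by 0.44 ± 0.12 (0.0468). With KD1 there were 7 lower and 1 higher, where 11.1% of all genes were called in either direction. Between the hairpins 7 genes were called, against 3.54% of all genes. Among those 7 genes, GDF3, a TGF-beta family ligand, was at 0.564 and 0.266 CPM with SCR, 0.0 and 0.0469 with KD1, 0.15 and 0.185 with KD2, and 0.806 and 0.347 with KD3. Every one of these values is under 1 CPM. TDGF1, the Nodal co-receptor, chosen after its values were seen, was at 18.4 and 17.5 CPM with SCR, 4.73 and 5.02 with KD1, 22.0 and 9.0 with KD2, and 31.8 and 25.6 with KD3. KLF4, called in the same test and also chosen after its values were seen, went the other way between KD1 and KD3. It was at 3.71 and 3.67 CPM with SCR, 5.28 and 5.18 with KD1, 1.75 and 2.31 with KD2, and 2.39 and 1.71 with KD3.

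In the LIN28 and let-7 list, 3 of 22 tested genes were called for the H1 average, against 7.16% of all genes. CCND2, a cyclin and a let-7 target, rose by 0.80 ± 0.19 (SE, log2, edgeR adjusted p = 0.035), while E2F5 and CDC25A, both cell cycle genes, fell by 0.39 ± 0.08 (0.0223) and 0.49 ± 0.10 (0.0223). HMGA2, a chromatin protein and classic let-7 target, was called between the hairpins (adjusted p = 0.0175) and fell by 0.74 ± 0.13 with KD1 (0.00888). The list's median was 0.04 against 0.01 over all genes.

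In the list of FGF receptors and signalling targets, 3 of 21 tested genes were called for the H1 average, against 7.16% of all genes. SPRY4 and DUSP6, feedback inhibitors of FGF and ERK signalling, fell by 1.37 ± 0.10 (SE, log2, edgeR adjusted p = 0.000141) and 0.67 ± 0.09 (0.00311), and SPRY4 also fell over both lines, by 1.09 ± 0.15 (0.0137). FGF8, a patterning ligand, rose by 1.17 ± 0.14 (0.00236). FGF8 was called between the hairpins (0.0022) and was high with both KD2 and KD3. It was at 13.6 and 12.4 CPM in SCR, 15.4 and 14.3 with KD1, 45.5 and 40.4 with KD2 and 43.2 and 35.2 with KD3. FGF4 itself was at or under 0.484 CPM in the same H1 libraries in which SPRY4 was at 51.9 to 156 CPM.

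Of 17 neuroectoderm markers 6 were higher and none lower for the H1 average, where 7.16% of all genes were called, with a median log2 of 0.26 against 0.01 over all genes. The markers depended on the hairpin. With KD1, 2 were higher and 1 (ZIC1) lower, against 11.1% of all genes called, with a median of 0.007. Between the hairpins 4 were called (DCX, SIX6, SOX1 and ZIC1), against 3.54% of all genes. In those 4 both KD1 libraries were below both SCR libraries. SIX3, RAX and LHX2, factors of the eye field and forebrain, rose by 0.66 ± 0.11 (SE, edgeR adjusted p = 0.00941), 0.93 ± 0.19 (0.0214) and 0.65 ± 0.14 (0.0233). PAX6 rose by 0.77 ± 0.19 (0.039) and SOX11, a factor of neural progenitors, by 0.44 ± 0.12 (0.0492). The summed level of these markers was 1723 to 1802 CPM with SCR and 1809.7 to 2421 CPM in the knockdown libraries where ZFP42 and NANOG are described above, and its part in their values was not tested.

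The genes most like a member were found by Pearson's r of log2(CPM + 0.5), less the mean of the line, over 12 libraries and 14939 genes averaging 1 CPM or more. NANOG was most like EXT1, SIRT5 and SRD5A1 (r = 0.96, 0.95 and 0.94), and POU5F1 was most like SNRPB, TALDO1 and ALYREF (0.96, 0.96 and 0.95). PRDM14 was most like ZSCAN10 (0.93), HES6 (0.92) and VRTN (0.92), of which ZSCAN10 and VRTN are in the pluripotency list. DPPA4 was most like TERF1 (0.93), also in that list, TMEM151B (0.93) and NEFH (0.92). ZFP42 was most like ZNF114, UTP6 and ETF1 (0.94, 0.93 and 0.93), L1TD1 like EDA2R, HEG1 and PTPRZ1 (0.93, 0.92 and 0.92) and FGF4 like SCAMP5, RAB39B and HLA-DPB2 (0.97, 0.94 and 0.93). DPPA2 was most like TMIGD2, OCLN and PGRMC2 (0.94, 0.88 and 0.84). LIN28A was most like PET117, MLKL and FAM162A (0.89, 0.87 and 0.86) and LIN28B like ANKRD28, ZNF92 and FAM135A (0.94, 0.94 and 0.93). Among the members themselves the highest value was 0.83 for PRDM14 and FGF4, POU5F1 and NANOG reached 0.67, and LIN28A and LIN28B had the lowest, -0.56. The points share libraries, depth and the GC trend, so these values describe the libraries only.

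N6-methyladenosine is written mostly in the letters GGACT and their variants, and the members differed in how many they hold. DPPA2, DPPA4 and ZFP42 held 1.45, 1.42 and 1.13 of GGACT per kilobase of transcript, above the median of 0.93 over 19666 genes. NANOG held 0.58, L1TD1 0.52, LIN28A 0.50, LIN28B 0.36 and FGF4 0.31 per kilobase, and POU5F1 and PRDM14 held none in the transcript searched. Modification was not measured here, and a match in the letters is no site.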

How the data were processed

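Total RNA of day 10 embryoid bodies was sequenced in 12 libraries (stranded preparation, per the labels). The authors deposited estimated counts per Ensembl gene identifier, not scaled between libraries; fastp and kallisto are named in the submitters' processing notes without versions. The build, the annotation and the strand setting of that run are not given in the sources used here. Such counts divide reads between similar sequences, so copies, pseudogenes and antisense genes are uncertain. No column was left unused.

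Counts were rounded. The 24898 genes kept by filterByExpr with 7 groups were TMM-scaled and tested in edgeR 4.0.16 (R 4.3.3, limma 3.58.1) with robust quasi-likelihood F-tests and Benjamini-Hochberg adjustment over all of them, with calls made below an adjusted p of 0.05. The standard error given is the log2 fold change over the square root of F. MEL1 SCR has 1 library, so MEL1 knockdown against it is described only, and it enters tests only in contrasts over both lines. Models use all libraries and share 1 spread. On simulated data the sizes of known changes were estimated without bias, but a part of the changed genes was not called. A gene that was not called may therefore still have changed. The share of false calls lay above the nominal level in most comparisons, so calls close to the threshold are the least certain. Symbols came from a name table with 59243 of the identifiers.

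Members and lists were chosen with earlier results of these data known. The text names the members, METTL14, up to 6 called genes per list by adjusted p, and the 3 genes most like each member. Alternatives were other scalings (median of ratios, upper quartile), no filter, a mean of at least 1 CPM, DESeq2 1.42.0, fitting without robust dispersions, equal weight for group means, the H1 libraries by themselves, removal of a GC and length trend (for which 90.6% of genes had values), and leaving out each library. The POU5F1 copies and the contrasts of KD1 with KD2 outside H1 were added after seeing the data.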

Additional observations from a re-analysis of the deposited data

Results flagged for a closer look

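Within H1, members that differed between the hairpins in a test of that difference were NANOG (edgeR adjusted p = 0.01), FGF4 (0.0154) and DPPA4 (0.0261). FGF4 passed the filter on low counts only through the H1 KD3 and MEL1 libraries, where it was high, so its call is no independent support. For DPPA4, the log2 of KD3 over KD1 ran from 0.39 to 0.62 over 8 other settings. In all 3 the KD3 libraries were the highest of the knockdown libraries, and none of the 3 was called once either KD1 library was left out.

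DPPA4 was also the member whose KD1 minus KD2 difference was called to differ between MEL1 and H1, by a log2 of 1.27 (edgeR adjusted p = 0.01). The contrast was added after the levels were seen and rests on 1 MEL1 KD2 library, so it is no independent support. DPPA4 was at 559.5 and 592 CPM with KD1 against 259 CPM in the single KD2 library of MEL1, and 179 and 160.3 against 194 and 174 CPM in H1. Without H1 KD1 replicate 2 its adjusted p was 0.053.

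Of 20 highest or lowest values over the 6 H1 knockdown libraries of each member, 0 lay beyond Dixon's critical value. Those libraries join 3 hairpins, whose differences widen the range, and SCR and MEL1 groups are too small for this examination.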

How the results depend on the processing

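No paired analysis was possible because the labels carry no replicate numbers. Counts of members called moved as follows. Without the filter on low counts they were 2 for H1 KD2, 6 for H1 KD3, 5 between the H1 hairpins, 2 for the difference between the lines in the KD1 and KD2 effect and 6 for that in KD1 minus KD2. With DESeq2 they were 1 over both lines, 2 for H1 KD2, 4 for H1 KD3, 5 between the H1 hairpins, 2 for the lines' KD1 and KD2 effect and 6 for KD1 minus KD2. Over both lines, group means gave 3 and H1 by itself 1, and H1 by itself gave 1 for H1 KD3. For KD1 minus KD2 between the lines, median-of-ratios and upper-quartile scaling gave 2 each, a mean of at least 1 CPM gave 4 and removal of the GC and length trend gave 3. When 1 library was left out, counts ranged from 0 to 1 over both lines, 0 to 3 for the H1 average, 0 to 3 for H1 KD1, 0 to 1 for H1 KD2, 1 to 3 for H1 KD3, 0 to 4 between the H1 hairpins, 0 to 1 for the lines' KD1 and KD2 effect, 1 to 5 for MEL1 KD1 against KD2, and 1 to 3 for KD1 minus KD2. MEL1 against H1 gave 8 throughout. Signs turned only for values that were not called. LIN28B in the H1 average was 0.003 with median-of-ratios scaling and with DESeq2, 0.018 with upper-quartile scaling, 0.006 at a mean of at least 1 CPM and 0.02 with the GC trend removed. That removal also turned DPPA4 (0.023) and LIN28B (0.001) with KD1, and LIN28B (-0.041) with KD3. Leaving out 1 library gave log2 ranges that cross 0. For PRDM14 they were -0.048 to 0.29 (average), -0.81 to 0.13 (KD1) and -0.31 to 0.30 (KD2), and for L1TD1 -0.24 to 0.61 (average) and -0.13 to 0.86 (KD2). For DPPA4 with KD2 the range was -0.12 to 0.031, and for LIN28A with KD3 it was -0.03 to 0.14. For LIN28B they were -0.28 to 0.33 (average), -0.44 to 0.14 (KD1), -0.16 to 0.46 (KD2), -0.22 to 0.39 (KD3) and -0.20 to 0.053 (MEL1 against H1). The cause was not tested, except that leaving out a library leaves fewer libraries. No gene of the lists had more than 1 identifier under its symbol, so keeping 1 per symbol changed nothing. Depth limits FGF4 and DPPA2 in H1.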

Other observations

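PRDM14, DPPA4 and NANOG are also expressed in germ cells. The 15 germ cell markers summed to 51.9 to 72.3 CPM in H1 and 123 to 225 CPM in MEL1. Of the 10 tested, 1 was called for the H1 average, against 7.16% of all genes: DAZL, an RNA-binding protein of germ cells, fell by 1.19 ± 0.28 (SE, log2, edgeR adjusted p = 0.0314), at 1.74 and 2.27 CPM with SCR and 0.507 to 1.10 CPM in the 6 knockdown libraries. In MEL1, 9 of the 10 differed from H1 with the same hairpins, 7 higher and 2 lower, where 22.0% of all genes were higher and 21.9% lower. NANOS3 was at 0.128 CPM or less and SOX17 at 0.115 CPM or less in every library, and both define human primordial germ cells. TFAP2C, a factor shared by germ cells and trophoblast, was at 85.3 CPM with SCR, 46.5 and 46.2 with KD1 and 120.2 with KD2 in MEL1, so its order of the MEL1 groups was the opposite of that of POU5F1, NANOG and PRDM14. FOXD3 of the pluripotency list had the order of TFAP2C, with 17.1 CPM in SCR, 11.7 and 12.3 with KD1 and 47.8 with KD2. TFAP2C and this use of FOXD3 were chosen after their values were seen.

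Among 18 tested mesoderm and endoderm markers, KDR, the receptor of endothelial progenitors, was the 1 gene called for the H1 average and fell by 1.07 ± 0.08 (edgeR adjusted p = 0.000162). Of all genes 7.16% were called in that comparison. KDR fell by 0.89 ± 0.16 over both lines too (0.0363). TBXT, which marks primitive streak, was at 1.16 CPM or less in every library. Of 13 trophoblast and amnion markers, IGFBP3 alone was called for the H1 average, against the same 7.16%, and rose by 1.47 ± 0.16 (0.00168). Neither count stands out from that share. In MEL1, 9 of the 13 were higher and 1 lower than in H1 with the same hairpins, where 22.0% of all genes were higher and 21.9% lower. The summed level was 438 to 643 CPM in MEL1 and 307 to 458 CPM in H1.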
